A study of Mus musculus with 4 samples.

Results

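The genes described here are 8 products of Paneth cells, *Defa17*, *Defa23*, *Defa24*, *Defa30*, *AY761184*, *Lyz1*, *Itln1* and *Ang4*, out of 31950 gene IDs that both gene expression libraries of the series list. They were selected on measured values, their levels in the WT and *A20ZF7* barcodes of these same libraries, so the sizes of those differences are given as a description and support nothing. All 8 were matched by gene ID and all 8 IDs were in both lists, with *AY761184* under the symbol *Defa39* in the WT list. The libraries hold small intestinal lamina propria (SILP) cells of mice at 12 weeks of age, enriched for T cells and innate lymphoid cells with a negative selection kit and counted by droplet single-cell RNA sequencing from the 5′ end. *A20ZF7* mice are homozygous for knock-in point mutations in the zinc finger of A20 that binds linear ubiquitin, and the WT mice are congenic. Each genotype is 1 library of 2 pooled mice from 60000 collected cells, so no difference between genotypes could be tested. Values in parentheses after a level, ratio or share are its 95% interval, which reflects counting error alone.

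Paneth cells sit at the base of small intestinal crypts and release granules of antimicrobial proteins into the lumen. Alpha-defensins are short cationic peptides that disrupt bacterial membranes, and in mice their precursors are cut by the metalloproteinase Mmp7. *Lyz1* encodes the Paneth cell lysozyme, which cuts bacterial cell walls, *Itln1* encodes intelectin, a lectin that binds microbial sugars, and *Ang4* encodes an antimicrobial ribonuclease of the angiogenin family that goblet cells can also make. Wnt signals at the crypt base, read through TCF factors, drive Paneth cell maturation and alpha-defensin transcription. Epithelium is stripped off before lamina propria cells are prepared, and RNA of broken cells can enter any droplet and be counted there.

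The 5 defensin genes lie on mouse chromosome 8 between positions 21055047 and 21735471 (mm10, GENCODE vM21), a span of 680.4 kb, with *AY761184* on the minus strand and the others on the plus strand. Each has 2 exons. *Itln1* is on chromosome 1 (171518122–171535294), *Lyz1* on chromosome 10 (117287797–117292868) and *Ang4* on chromosome 14 (51763878–51773590), all on the minus strand. The defensin genes are near copies of each other, which limits how many reads can be counted for 1 gene alone, so their coding sequences are shown. The first 90 coding bases follow, 5′ to 3′, with bases that differ from *Defa24* in capitals.
Defa24: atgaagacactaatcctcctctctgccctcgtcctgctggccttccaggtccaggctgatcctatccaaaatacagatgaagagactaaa
Defa30: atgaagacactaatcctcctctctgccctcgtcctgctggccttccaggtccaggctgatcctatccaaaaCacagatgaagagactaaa
Defa17: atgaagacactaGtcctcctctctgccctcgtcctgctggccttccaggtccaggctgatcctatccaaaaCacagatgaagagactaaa
Defa23: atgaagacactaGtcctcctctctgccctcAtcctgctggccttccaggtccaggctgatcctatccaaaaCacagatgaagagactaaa
AY761184: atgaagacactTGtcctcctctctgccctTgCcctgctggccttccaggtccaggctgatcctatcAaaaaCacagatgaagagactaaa

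In this stretch *Defa30* differed from *Defa24* at 1 base, *Defa17* at 2, *Defa23* at 3 and *AY761184* at 6. The second coding exon holds the end of the precursor that becomes the peptide. It is shown for the 4 genes in which it has 107 bases, again with differences from *Defa24* in capitals.
Defa24: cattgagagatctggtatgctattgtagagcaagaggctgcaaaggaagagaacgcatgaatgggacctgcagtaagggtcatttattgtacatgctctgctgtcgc
Defa30: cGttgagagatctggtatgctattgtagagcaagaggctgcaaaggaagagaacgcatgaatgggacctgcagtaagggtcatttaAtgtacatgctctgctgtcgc
Defa17: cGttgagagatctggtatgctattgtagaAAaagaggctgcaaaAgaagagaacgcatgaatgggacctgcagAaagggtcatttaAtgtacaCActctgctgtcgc
Defa23: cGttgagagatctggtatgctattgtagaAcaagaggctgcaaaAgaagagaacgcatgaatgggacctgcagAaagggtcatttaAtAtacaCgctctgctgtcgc

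Here *Defa30* differed from *Defa24* at 2 bases, *Defa23* at 7 and *Defa17* at 8. *AY761184* stood apart, with a second coding exon of 176 bases, of which 81 of the first 107 differed from *Defa24* position by position. Over the 172 bases of the first coding exon, the 10 pairs of the 5 genes were 89.5% to 98.8% identical. In the GENCODE transcripts, 280 of the 308 stretches of 90 bases in *Defa17* (90.9%) also occur in *Defa3* or *Defa30*, and 288 of the 322 in *Defa23* (89.4%) also occur in *Defa30* or *Defa31*. *Defa30* shares 14 of its 309 stretches, and *Defa24* and *AY761184* share none. Of the first 60 stretches from the 5′ end, *Defa17* shares 60, *Defa23* 26 (43.3%) and *Defa30* 11 (18.3%). The length of 90 bases was chosen here, because the read length is not given in the sources used. Cell Ranger, which made the counts, drops reads that match several genes equally well, so the counts of *Defa17* and *Defa23* are uncertain and are not compared in level with those of the other members. *Lyz1* shares 44 of 1174 stretches with *Lyz2*, the macrophage lysozyme, and *Itln1* and *Ang4* share none.

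Promoter sequence was at hand for 5 of the 8 genes (RefSeq, GRCm38.p6), and *Defa17*, *Defa24* and *AY761184* had no entry. The 150 bases before the start are shown for the 2 defensin genes with an entry, *Defa23* (chr8:21054890-21055039, plus strand) and *Defa30* (chr8:21134500-21134649, plus strand). Capitals mark the TCF motif ATCAAAG, searched on both strands (CTTTGAT on the other), and the TATA motif TATAAA, searched on the strand of the gene.
Defa23: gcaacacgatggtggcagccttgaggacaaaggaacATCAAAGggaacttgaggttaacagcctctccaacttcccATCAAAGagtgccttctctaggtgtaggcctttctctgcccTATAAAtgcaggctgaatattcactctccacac
Defa30: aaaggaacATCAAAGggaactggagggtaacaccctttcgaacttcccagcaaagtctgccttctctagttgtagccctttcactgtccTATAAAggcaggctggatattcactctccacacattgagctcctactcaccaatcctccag

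ATCAAAG was found 2 times before *Defa23* and 1 time before *Defa30*, and it is in 591 of 32851 mouse promoters over the same 150 bases (1.80%). TATAAA was found 1 time in each and is in 4.84% of promoters. Neither motif was in the 250 bases before *Lyz1*, *Itln1* or *Ang4*.

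The matrices hold 35171651 UMIs (unique molecules) of shared gene IDs in WT and 52727058 in *A20ZF7*. The filters leave 14734 cells in WT (median depth 1059 UMIs) and 43218 in *A20ZF7* (median depth 853 UMIs), and 913 cell barcodes are in both libraries (6.20% of WT and 2.11% of *A20ZF7* cells). Clusters made without the 8 genes gave 495 WT and 79 *A20ZF7* epithelial-like barcodes, 5247 and 19673 T and innate lymphocyte-like barcodes, and 7294 and 14180 stromal-like barcodes, called epithelial, lymphocyte and stromal below. Cluster 11 was the largest stromal cluster in WT and cluster 0 in *A20ZF7*, and among lymphocyte barcodes cluster 6 was the largest in WT and cluster 2 in *A20ZF7*. Barcodes with 1–50 UMIs, taken as free RNA, hold 1470161 UMIs in WT and 786043 in *A20ZF7*. The gene lists of the libraries differ (33696 and 32285 IDs, with 6 of the 28 shared alpha-defensin IDs under other symbols), so the counting reference, the mice, the library and the genotype cannot be told apart.

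Over all barcodes *Defa24* had 4871 UMIs in WT and 674 in *A20ZF7*, *Defa30* had 2283 and 288, and *AY761184* had 809 and 89. *Defa23* had 296 and 25 UMIs and *Defa17* had 134 and 14. Of the granule genes, *Ang4* had 286 and 20 UMIs, *Lyz1* 245 and 80, and *Itln1* 166 and 26. All 8 were thus lower in the *A20ZF7* library, although that library is the deeper one. Per UMI of the library, the ratio of *A20ZF7* to WT ran from 0.0467 (0.0281–0.0734) for *Ang4* to 0.218 (0.167–0.281) for *Lyz1*, with *Defa24* at 0.0923 (0.0850–0.1001). All 8 were at least 2-fold lower, as were 11.8% of the 16809 genes with at least 20 UMIs in the genotype where they are higher, and since this contrast chose the genes nothing is read from the count. Over all cells the ratio of the summed genes was 0.0607 (0.0565–0.0652), and without the 22 WT and 13 *A20ZF7* cells that hold 10 or more of their UMIs it was 0.4985 (0.443–0.561), with *Defa24* at 0.492 (0.418–0.579) and *Lyz1* turned to 2.90 (1.37–7.07).

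In free RNA the defensin genes were high in WT and had few UMIs in *A20ZF7*. *Defa24* was at 204 counts per 1000000 UMIs (CPM, 182–228; 300 UMIs) in WT and at 11.4 CPM (5.24–21.7; 9 UMIs) in *A20ZF7*. *Defa30* was at 91.8 CPM (77.0–109) in WT and 11.4 CPM (5.24–21.7) in *A20ZF7*. *AY761184* was at 28.6 CPM (20.6–38.6) and *Defa23* at 20.4 CPM (13.8–29.1) in WT, with 1 UMI of each in *A20ZF7*. The intervals of these 4 genes did not overlap between the libraries. The share of all genes whose intervals did not overlap is not given here, so nothing is read from that count. *Defa17* had 3 UMIs in WT and 0 in *A20ZF7*, which is too few to compare.

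The granule genes were sparse in free RNA. *Ang4* had 10 UMIs in WT (6.80 CPM, 3.26–12.5) and 0 in *A20ZF7*, where 3 UMIs would be 3.82 CPM. WT was 1.78-fold above that floor, and the interval of the ratio of *A20ZF7* to WT reached 0.834. *Lyz1* had 8 UMIs in WT (5.44 CPM, 2.35–10.7) and 0 in *A20ZF7*, with an interval of the ratio that reached 1.10. *Itln1* had 9 UMIs in WT and 1 in *A20ZF7*, a ratio of 0.208 (0.00474–1.50). At this depth a difference in *Lyz1* or *Itln1* was not detectable.

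Summed over the 8 genes, free RNA held 365 CPM (335–398) in WT and 26.7 CPM (16.5–40.8) in *A20ZF7*, a ratio of 0.0731 (0.0449–0.113). Barcodes of 1–10 UMIs held 591771 of the 786043 free RNA UMIs in *A20ZF7* and 488176 of the 1470161 in WT. The sum there was 20.3 CPM in *A20ZF7* and 102 CPM in WT, below the 46.3 and 496 CPM of barcodes with 11–50 UMIs. What this unlike mix of depths adds to the ratio was not tested. *Defa24* and *Defa30* were the members that passed a filter of 20 UMIs in the higher genotype and a mean of 20 CPM, and both were at least 2-fold lower in *A20ZF7*, as were 3.9% of the 6159 genes that passed it in free RNA. Without the CPM minimum *AY761184* and *Defa23* passed too, all 4 were at least 2-fold lower, and so were 7.35% of the 7153 genes. All 4 passed the UMI minimum only through WT, with at most 9 UMIs each in *A20ZF7*. This contrast also chose the genes, so nothing is read from either count. In sums over free RNA, the number of Paneth cells, their transcripts per cell and the amount of epithelial RNA in each preparation cannot be told apart.

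Other epithelial transcripts were lower in *A20ZF7* free RNA too. The enterocyte list (9 genes such as *Fabp1* and *Apoa1*, which carry lipid) was at 4194 CPM in WT and 528 CPM in *A20ZF7*, a ratio of 0.126 (0.114–0.139). The goblet list (7 genes such as *Muc2*, the main intestinal mucin) was at 223 and 14.0 CPM, a ratio of 0.0627 (0.0310–0.114). The Reg3 list, antimicrobial lectins of the epithelium, had a ratio of 0.285 (0.237–0.341), and the immunoglobulin list, from plasma cells, one of 0.615 (0.601–0.631). The lists of the crypt base at 1.31 (0.778–2.18) and of tuft cells at 0.959 (0.530–1.69) had intervals that include 1. In WT both lists were higher in stromal barcodes (116 and 113 CPM) than in epithelial ones (13.1 and 10.2 CPM). They are therefore not read as measures of epithelial RNA. The pancreatic acinar list was higher in *A20ZF7*, at 2.62 (2.10–3.29). Per UMI of the enterocyte list in the same barcodes the 8 genes in *A20ZF7* were at 0.581 (0.357–0.897) of WT. The value depended on the list, with 1.17 per goblet UMI (11 goblet UMIs in *A20ZF7*), 0.256 per Reg3 UMI and 0.0559 per crypt base UMI.

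**Figure D1:**
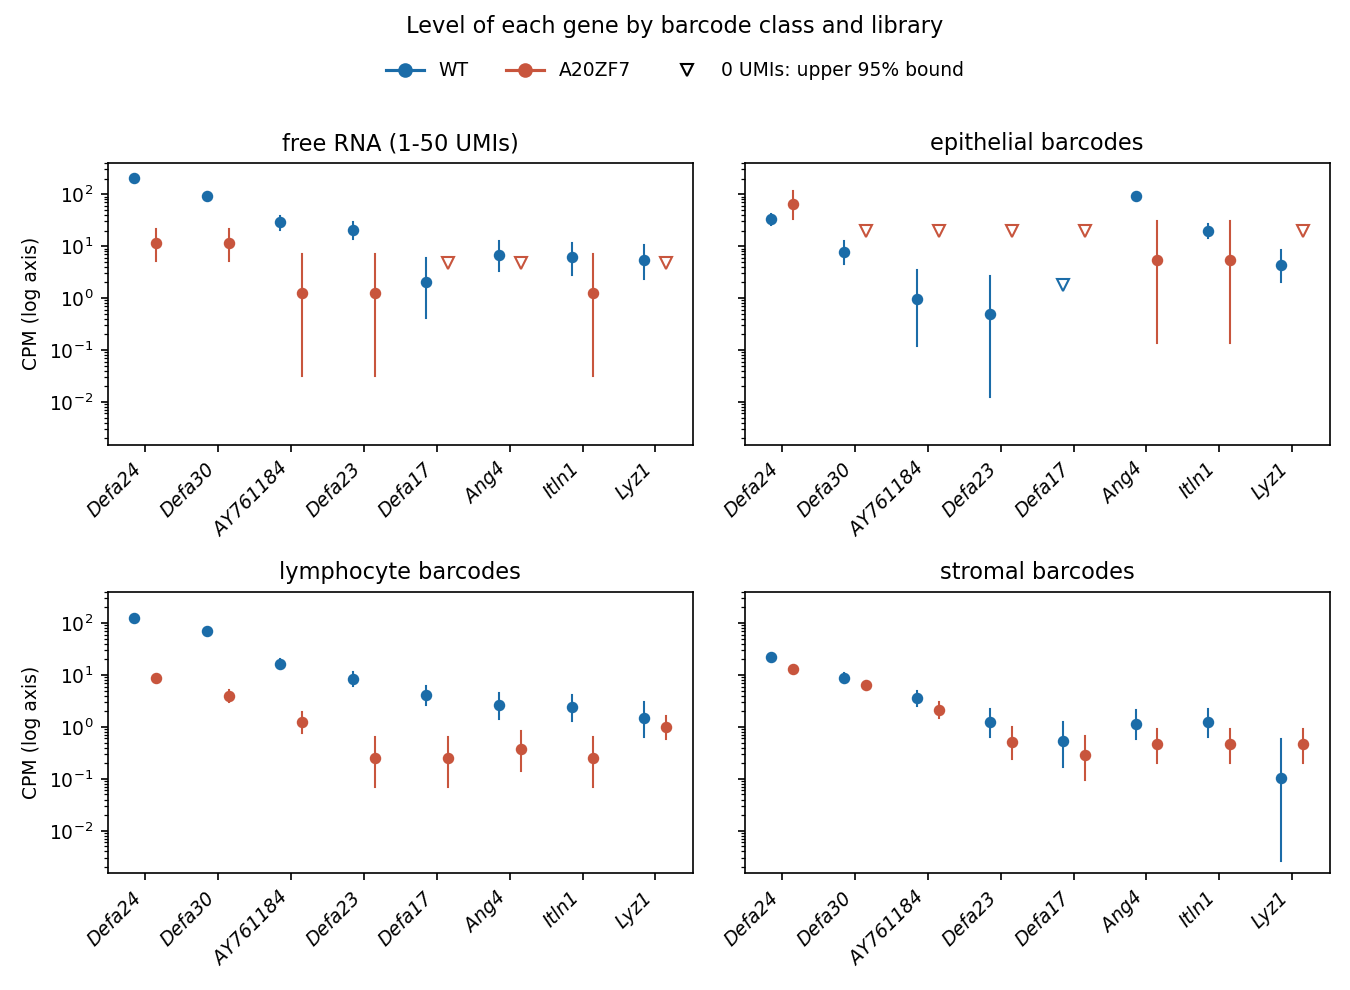
Level of each of the 8 genes in CPM (log axis) in free RNA (barcodes with 1-50 UMIs), epithelial, lymphocyte and stromal barcodes of WT and A20ZF7. Points are UMI sums over the class divided by all its UMIs, lines are 95% Poisson intervals, and open triangles mark the upper bound where no UMI was counted. Defa24 and Defa30 are higher in WT by more than their intervals in free RNA and in lymphocyte barcodes, and the libraries lie closer together in stromal barcodes.

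Epithelial barcodes held less defensin RNA per UMI than free RNA in WT. *Defa24* was at 33.0 CPM (25.6–41.8) in WT epithelial barcodes, with 68 UMIs in 12 of 495 barcodes, and at 64.9 CPM (33.5–113) in *A20ZF7*, with 12 UMIs in 2 of 79. *Defa30* had 16 UMIs in WT (7.77 CPM) and 0 in *A20ZF7*, where 3 UMIs would be 16.2 CPM, so no fold is given. *AY761184* had 2 UMIs in WT and 0 in *A20ZF7*, *Defa23* 1 and 0, and *Defa17* 0 in both. The cluster of epithelial markers thus held few defensin transcripts in either library.

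Among the granule genes in WT epithelial barcodes *Ang4* was at 93.2 CPM (80.5–107), from 192 UMIs in 2 barcodes with 191 of them in 1, and had 1 UMI in *A20ZF7*, a ratio of 0.0580 (0.00146–0.327). *Itln1* had 41 UMIs in 14 WT barcodes (19.9 CPM, 14.3–27.0) and 1 in *A20ZF7*. *Lyz1* had 9 and 0 UMIs. Measured against WT free RNA, epithelial barcodes held 13.7 times (7.29–29.0) as much *Ang4* and 3.25 times (1.56–7.61) as much *Itln1*, while *Defa24* was at 0.162 (0.122–0.211) of it. Without the 2 WT barcodes of 10 or more UMIs of the 8 genes, *Ang4* had 1 UMI (0.488 CPM) and *Itln1* 12 (5.86 CPM) in the class, both below their free RNA levels of 6.80 and 6.12 CPM.

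The sum of the 8 genes in epithelial barcodes was 160 CPM in WT and 75.7 CPM in *A20ZF7*, a ratio of 0.474 (0.256–0.807). *Ang4* was the member that passed the filter on UMIs and CPM, and 19.7% of the 3317 genes that passed it were at least 2-fold lower in *A20ZF7* in this class. Without the CPM minimum *Itln1* and *Ang4* passed and both were at least 2-fold lower, where 27.6% of the 4521 genes were. Both passed only through WT, with 1 UMI each in *A20ZF7*. The ratio of *Itln1*, 0.272 (0.00672–1.60), had an interval that includes 1. Without barcodes of 10 or more UMIs of the 8 genes, *Ang4* had 1 UMI in each library. Nothing is read from these counts. The 5 defensin genes alone gave a ratio of 1.54 (0.765–2.82), and *Lyz1*, *Itln1* and *Ang4* alone one of 0.0921 (0.0111–0.336). In WT 1 barcode held 76.6% of the UMIs of the 8 genes in the class and in *A20ZF7* 1 barcode held 78.6%, and without barcodes of 10 or more such UMIs the ratio was 0.824 (0.163–2.58). The makeup of the class differed too, with the goblet list at 554 CPM in WT and 11460 CPM in *A20ZF7* and the enterocyte list at 81420 and 15730 CPM. Barcodes with 10 or more goblet list UMIs were 6 in WT and 5 in *A20ZF7*. In WT 1 of the 6 held 252 of the 329 UMIs of the 8 genes, and the others held none. In *A20ZF7* the 5 held 13 of the 14, with 11 of them in 1 barcode. The epithelial sum thus came mostly from 1 barcode in each library. The part of the difference in makeup in the ratios of the 8 genes was not tested.

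In lymphocyte barcodes *Defa24* was at 123 CPM (113–133; 652 UMIs) in WT and 8.64 CPM (7.25–10.2; 136 UMIs) in *A20ZF7*. *Defa30* was at 70.6 CPM (63.6–78.1) and 3.94 CPM (3.02–5.05). *AY761184* was at 16.2 CPM (12.9–19.98) and 1.27 CPM (0.776–1.96), *Defa23* at 8.47 and 0.254 CPM, and *Defa17* at 4.14 and 0.254 CPM. The intervals of all 5 defensin genes lay apart, and the share of all genes for which they did so is not given here. *Ang4* was at 2.63 CPM (1.44–4.42) and 0.381 CPM (0.140–0.829) and *Itln1* at 2.45 CPM (1.30–4.18) and 0.254 CPM (0.0692–0.650). *Lyz1*, at 1.505 CPM (0.650–2.97) and 1.02 CPM (0.581–1.65), was the member whose intervals overlapped.

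The lymphocyte sum was 229 CPM (216–242) in WT and 16.0 CPM (14.1–18.1) in *A20ZF7*, a ratio of 0.0700 (0.0609–0.0802). *Defa24* and *Defa30* passed the filter and were at least 2-fold lower in *A20ZF7*, as were 1.87% of the 6189 genes that passed it. Without the CPM minimum the 5 defensin genes passed and were all at least 2-fold lower, as were 3.76% of the 11827 genes. *Defa17* and *Defa23* passed only through WT, with 4 UMIs each in *A20ZF7*. This contrast also chose the genes, so nothing is read from either count. Few barcodes carried the UMIs of the 8 genes. Of 5247 WT barcodes, 5139 had no UMI of the 8 genes and 9 had 10 or more, and those 9 held 88.2% of the UMIs. Of 19673 *A20ZF7* barcodes, 19550 had none and 6 had 10 or more, with 39.7% of the UMIs. Without barcodes of 10 or more UMIs the sum was 27.2 CPM in WT and 9.65 CPM in *A20ZF7*, a ratio of 0.3555 (0.281–0.450), with *Defa24* at 0.325 (0.236–0.447) and *Defa30* at 0.306 (0.194–0.481). *A20ZF7* was thus still the lower library for these values, at a WT level of 27.2 in place of 229 CPM, while *Lyz1* then had 1 UMI in WT and 13 in *A20ZF7*. The ratios of *Defa23* at 0.112 (0.00214–1.40), *AY761184* at 0.505 (0.161–1.73) and *Defa17* at 0.505 (0.0579–6.05) then had intervals that include 1.

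In stromal barcodes *Defa24* was at 22.7 CPM (19.8–25.9) in WT and 13.0 CPM (11.4–14.9) in *A20ZF7*, intervals that lay apart. *Defa30* was at 8.76 CPM (6.97–10.9) and 6.32 CPM (5.19–7.62) and *AY761184* at 3.59 CPM (2.48–5.01) and 2.15 CPM (1.51–2.96), intervals that overlapped. *Defa23*, *Defa17*, *Itln1* and *Ang4* had between 5 and 12 UMIs in each library. *Lyz1* had 1 UMI in WT and 8 in *A20ZF7*, a ratio of 4.40 (0.590–195).

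The stromal sum was 39.4 CPM (35.5–43.6) in WT and 23.7 CPM (21.5–26.1) in *A20ZF7*, a ratio of 0.603 (0.522–0.695), and 0.531 (0.450–0.626) without barcodes of 10 or more UMIs. No member passed the filter with the CPM minimum, by which 3.0% of 7302 genes were at least 2-fold lower. *Defa24*, *Defa30* and *AY761184* had at least 20 UMIs in the higher genotype, and none of the 3 was at least 2-fold lower, where 6.2% of the 13993 genes counted without a CPM minimum were. Per UMI of the enterocyte list, whose own stromal ratio was 0.212 (0.195–0.230), the direction turned, with the 8 genes in *A20ZF7* at 2.84 times WT, and it turned per goblet (2.31) and enteroendocrine UMI (1.46) too. It did not turn per crypt base (0.743), tuft (0.613), Reg3 (0.596), immunoglobulin (0.363) or pancreatic acinar UMI (0.0473). The crypt base and tuft lists were higher in WT stromal than in WT epithelial barcodes, so those 2 values are not per epithelial UMI.

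**Figure D2:**
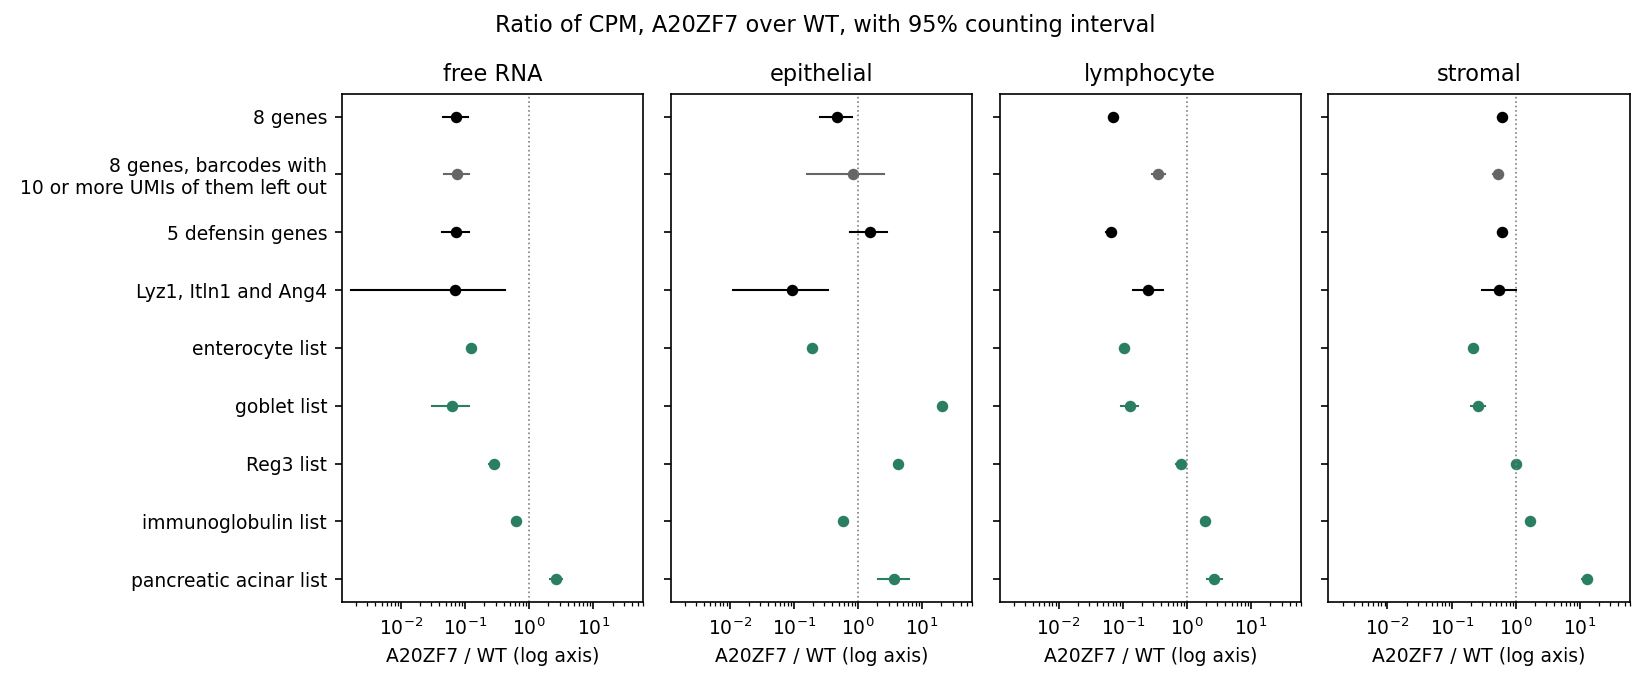
Ratio of the level in A20ZF7 to that in WT (log axis) in each barcode class for the sum of the 8 genes with and without barcodes that hold 10 or more of their UMIs, for the 5 defensin genes, for Lyz1, Itln1 and Ang4, and for comparison lists. Points are ratios of CPM and lines 95% exact conditional intervals. The lymphocyte ratio goes from 0.0700 to 0.3555 without those barcodes, and the stromal ratio from 0.603 to 0.531.

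Against the free RNA of the same library, the sum in lymphocyte barcodes was at 0.626 (0.565–0.694) in WT and at 0.599 (0.383–0.985) in *A20ZF7*. Epithelial barcodes were at 0.437 (0.380–0.502) in WT and 2.83 (1.33–5.84) in *A20ZF7*, the latter from 14 UMIs, 11 of them in 1 barcode. Stromal barcodes were at 0.108 (0.0942–0.123) of free RNA in WT and 0.888 (0.573–1.45) in *A20ZF7*. Without barcodes of 10 or more UMIs of the 8 genes, the WT lymphocyte value was 0.0774 (0.0639–0.0932). Against WT barcodes of 1–20 UMIs it turned to 1.905 (1.48–2.48), and with at least 1000 UMIs per cell to 1.14 (1.03–1.27), so whether lymphocyte barcodes lay above or below free RNA depended on which barcodes were compared.

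In both libraries the level of the 8 genes was higher in barcodes with more UMIs, up to 200 UMIs, and lower in the next deeper barcodes. In WT the sum was 102 CPM in barcodes with 1–10 UMIs, 496 CPM with 11–50, 687 CPM with 51–100 and 689 CPM with 101–200, and it was 124 CPM with 501–1000 UMIs. In *A20ZF7* it was 20.3, 46.3, 91.3, 120 and 22.4 CPM in the same bins. In barcodes with 51–200 UMIs the ratio of *A20ZF7* to WT was 0.152 (0.130–0.177). The enterocyte list in WT was at 3568 CPM (3403–3740) in barcodes of 1–10 UMIs, 4505 CPM (4373–4640) in those of 11–50 and 3681 CPM (3526–3842) in those of 101–200. In *A20ZF7* it was at 461 CPM (408–519), 731 CPM (616–861) and 660 CPM (608–716) in the same bins, with 325 CPM (291–362) in those of 51–100. In WT barcodes with 2001–5000 UMIs the 8 genes reached 554 CPM, of which 32.0 CPM (27.9–36.5) were left without the 1 barcode that held the most.

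**Figure D3:**
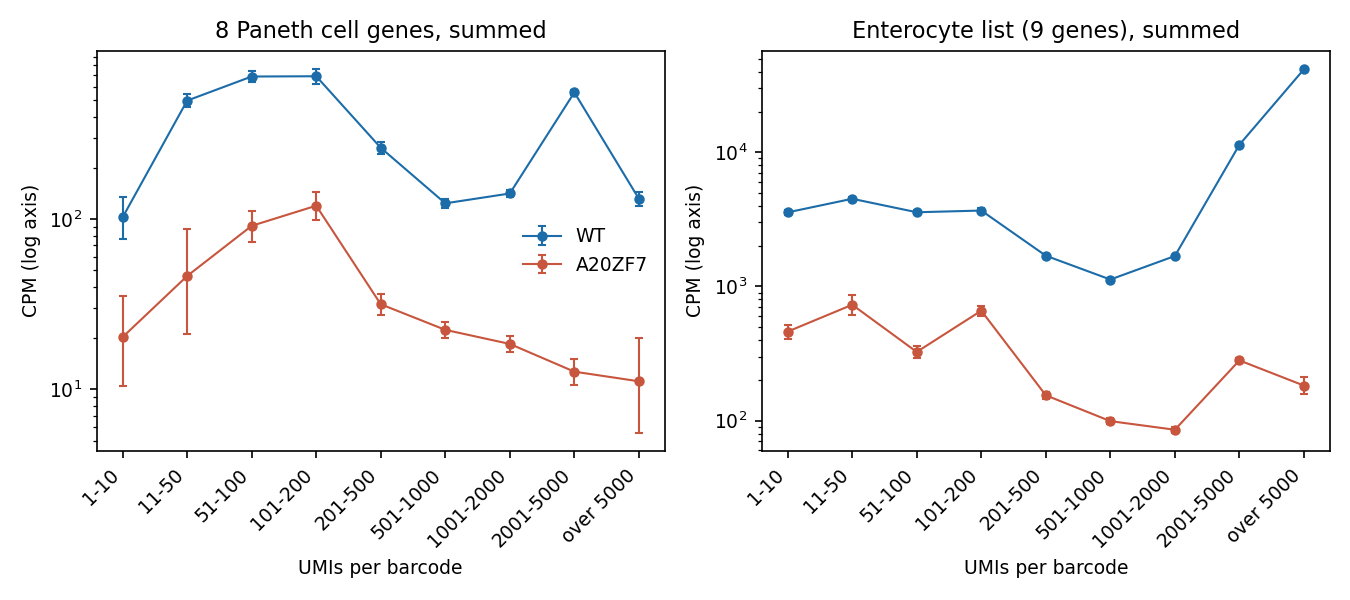
Summed level in CPM (log axis) of the 8 Paneth cell genes and of the enterocyte list by the UMIs per barcode, in WT and A20ZF7, with 95% Poisson intervals. Below 501 UMIs the 8 genes are highest at 101-200 UMIs in both libraries, at 689 CPM in WT and 120 CPM in A20ZF7, and the WT value of 554 CPM at 2001-5000 UMIs rests on 1 barcode.

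That WT barcode had 4717 UMIs of 263 genes, of which 3642 (77.2%) belonged to the 8 genes. It held 1979 UMIs of *Defa24*, 988 of *Defa30*, 377 of *AY761184*, 142 of *Defa23* and 57 of *Defa17*. The granule genes were there too, with 42 UMIs of *Itln1*, 39 of *Lyz1* and 18 of *Ang4*, beside 8 of *Mmp7*, 475 of the defensin *Gm14851* and none of *Epcam*, *Fabp1*, *Ptprc* or *Cd3e*. All 8 genes were thus counted together in 1 barcode with few other genes. It gave 40.1% of all WT UMIs of the 8 genes, and the 10 richest WT barcodes gave 65.3%. The clustering placed it in cluster 18, which has 18 WT and 908 *A20ZF7* barcodes and was left unnamed. Over both libraries pooled, that cluster is led by *Defa24*, *Defa30* and pancreatic enzymes such as *Ctrb1*. It also holds the second richest WT barcode, with 555 UMIs of the 8 genes, while all *A20ZF7* cells together held 879. The defensins are therefore not read as a trait of its *A20ZF7* barcodes.

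The next WT barcodes had 555 UMIs of the 8 genes among 996, 508 among 1401 and 304 among 445. In the one with 508, which lies in lymphocyte cluster 6, *Cd3e* and *Ptprc* had 1 UMI each. Among barcodes with at least 200 UMIs, 7 of 30296 in WT had more than 10% of their UMIs in the 8 genes, and these 7 held 60.6% of the WT UMIs of the genes. In *A20ZF7* 0 of 54738 did, where a count of 0 allows up to 3 barcodes. The richest *A20ZF7* barcode, in the stromal class, had 78 such UMIs among 1336, with 39 of *Defa24* and 27 of *Defa30*, and the 10 richest gave 21.3% of all.

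Some WT barcodes held granule genes without the full set. An epithelial barcode with 6176 UMIs had 191 UMIs of *Ang4* and 28 of *Itln1* beside 436 of *Spink4*, 175 of *Tff3*, 87 of *Clca1* and 45 of *Muc2*, which are goblet cell genes, and its 31 defensin UMIs among the members were all *Defa24*. A myeloid barcode with 6991 UMIs had 76 UMIs of *Lyz1* and none of the other members, beside 114 of *Lyz2* and 301 of *Apoe*, which macrophages make. *Lyz1* reached its highest level over the classes in myeloid barcodes in both libraries, at 253 CPM (204–311) in WT, from 2 of 266 barcodes, and 14.5 CPM (9.49–21.3) in *A20ZF7*, from 16 of 1402. Neither barcode held a UMI of *Defa30*, *AY761184*, *Defa23* or *Defa17*.

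**Figure D4:**
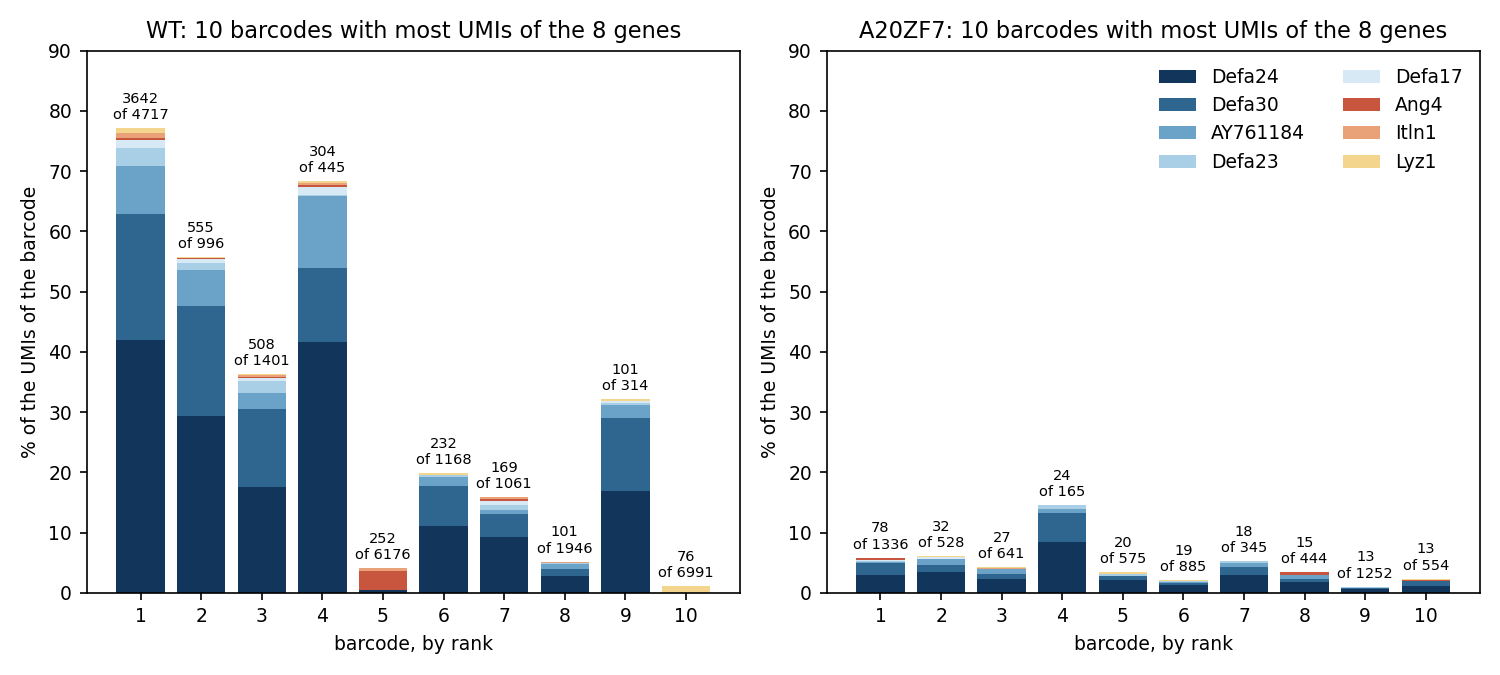
Share of a barcode's UMIs (%) taken by each of the 8 genes in the barcodes with most of their UMIs in WT and A20ZF7. Bars are single barcodes and colours the genes. The barcode with most UMIs of the 8 genes is at 77.2% in WT and at 5.84% in A20ZF7, where the highest share in the plot is 14.5%, in a barcode of 165 UMIs.

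The mixture of the members was compared between free RNA and lymphocyte barcodes. *Defa24* made up 55.9% (51.5–60.1) of the members' UMIs in WT free RNA, 53.7% (50.8–56.5) in WT and 54.0% (47.6–60.2) in *A20ZF7* lymphocyte barcodes. *AY761184* made up 7.82% (5.70–10.4), 7.08% (5.70–8.67) and 7.94% (4.92–12.0). *Defa30* made up 25.1% (21.5–29.0), 30.9% (28.3–33.5) and 24.6% (19.4–30.4). *Lyz1* made up 0.658% (0.285–1.29) in WT and 6.35% (3.67–10.1) in *A20ZF7* lymphocyte barcodes. In WT lymphocyte barcodes 9 barcodes held 88.15% of the members' UMIs and 1 held 41.8%, so the WT mixture is largely that of few barcodes. In *A20ZF7* 6 barcodes held 39.7%. The intervals count UMIs as independent and leave out the spread between barcodes, so no difference in mixture is read from them. *A20ZF7* free RNA, with 21 UMIs, had 42.9% (21.8–66.0) each of *Defa24* and *Defa30*, intervals that include the lymphocyte values.

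Few cells had any UMI of the 8 genes. In epithelial barcodes they were 7.07% (4.97–9.70) in WT, at a median of 4169 UMIs, and 5.06% (1.40–12.5) in *A20ZF7*, at 1986 UMIs. In stromal barcodes, whose cell types do not make these genes, they were 2.95% (2.57–3.36) at 1136 UMIs and 1.39% (1.203–1.60) at 1033 UMIs. In lymphocyte barcodes they were 2.06% (1.69–2.48) at 868 UMIs and 0.625% (0.520–0.746) at 669 UMIs. With every cell thinned to 500 UMIs the WT shares were 1.41% (0.570–2.89) in epithelial, 1.24% (0.957–1.58) in lymphocyte and 1.49% (1.23–1.80) in stromal barcodes. For the 8 genes together the first 2 thus did not exceed the stromal share. These shares count barcodes and not amounts, and whether the UMIs are background was not tested. Single granule genes differed before thinning, with *Itln1* in 2.83% (1.55–4.70) of epithelial and 0.137% (0.0658–0.252) of stromal WT barcodes and *Lyz1* in 1.41% (0.570–2.89) and 0.0137% (0.000347–0.0764). After thinning *Itln1* was in 0.606% (0.125–1.76) and 0.0960% (0.0386–0.198), and *Lyz1* in 0 of 495 and 1 of 7294. The thinned *A20ZF7* shares were 3.80% (0.790–10.7), 0.395% (0.301–0.509) and 0.696% (0.562–0.852), after 4731 lymphocyte and 812 stromal barcodes below 500 UMIs were left out, with no WT barcode below that depth.

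Part of the cells of the WT library were assigned to its 2 mice by hashtag, an antibody tag per mouse, and both mice share the free RNA of 1 library. No mouse was called for 335 of 495 epithelial, 1476 of 5247 lymphocyte and 4815 of 7294 stromal barcodes, and the epithelial ones without a call held 283 of the 329 UMIs of the 8 genes. The sum in lymphocyte barcodes was 298 CPM (275–323) in 1976 barcodes of mouse 1 and 178.5 CPM (160–198) in 1795 of mouse 2, with 508 and 169 UMIs in the richest barcode of each. In stromal barcodes it was 56.9 CPM (47.5–67.8) and 31.8 CPM (23.8–41.7), and in epithelial barcodes 92.9 CPM (66.4–127) and 26.8 CPM (9.83–58.3). Mouse 1 was higher in these 3 classes, but the order turned in stromal and epithelial barcodes without those of 10 or more UMIs. Without these barcodes, mouse 1 and mouse 2 were at 35.2 CPM (27.5–44.4) and 23.8 CPM (17.5–31.6) in lymphocyte barcodes, at 27.0 and 31.8 CPM in stromal ones and at 9.43 and 26.8 CPM in epithelial ones, all with intervals that overlapped. With all barcodes, both WT mice were above the pooled *A20ZF7* level in lymphocyte barcodes by more than the intervals. In stromal barcodes the interval of mouse 2 overlapped that of *A20ZF7*, and in epithelial barcodes the level of mouse 2 was below it. *A20ZF7* cells were not divided by mouse, because the antibody matrices of the genotypes are identical and were used for WT alone. No test of that choice is given here, and the split of WT by mouse and the removal of WT hashtag doublets depend on it.

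The other 23 alpha-defensin IDs had fewer UMIs, and the 5 members made up 84.2% of all alpha-defensin UMIs in WT and 69.7% in *A20ZF7*. Of the 23, 5 were at 0 in WT and 7 in *A20ZF7*. At least 20 UMIs in the higher genotype were counted for 10. Of these, 8 were at least 2-fold lower in *A20ZF7* over all barcodes, where 11.8% of all genes were. Several passed that minimum only through WT, such as *Gm15292* with 34 and 2 UMIs and *Defa26* with 39 and 8. Nothing is therefore read from the count. *Gm14851* (*Defa38* in the WT list) had 923 UMIs in WT and 111 in *A20ZF7*, a ratio of 0.0802 (0.0653–0.0978). *Defa3* had 123 and 11 UMIs and *Defa5* had 61 and 23. The WT barcode richest in the 8 genes alone held 475 of the 923 UMIs of *Gm14851* and 45 of the 123 of *Defa3*. *Defa21* and *Defa22* were the other pair, with 131 and 113 UMIs of *Defa21*, a ratio of 0.575 (0.443–0.746), and 105 and 140 UMIs of *Defa22*, a ratio of 0.889 (0.686–1.16).

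*Defa21* and *Defa22* share 149 stretches of 90 bases with each other, among them all of the first 60 of each transcript. Reads that match both equally well are dropped and are not restored by adding the 2 genes. The sum of the pair is given, and it rests on the reads that were left. It took 2.37% (2.08–2.68) of alpha-defensin UMIs in WT and 16.2% (14.4–18.1) in *A20ZF7*. In stromal barcodes it took 7.69% (5.39–10.6) in WT and 17.1% (14.0–20.4) in *A20ZF7*, and in lymphocyte barcodes 1.54% (0.955–2.34) and 16.1% (12.2–20.6). The share varied between barcodes. Of 33 WT barcodes with at least 20 alpha-defensin UMIs, 15 had none of the pair and the highest had 22.7%, and over the 7 such *A20ZF7* barcodes it ran from 0% to 28.6% with a median of 13.9%. In barcodes with fewer than 20 alpha-defensin UMIs it was 6.10% (5.24–7.07) in WT and 15.4% (13.5–17.6) in *A20ZF7*. Because the counting reference differs between the libraries, a different mixture of near copies and a different assignment of their reads cannot be told apart.

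**Figure D5:**
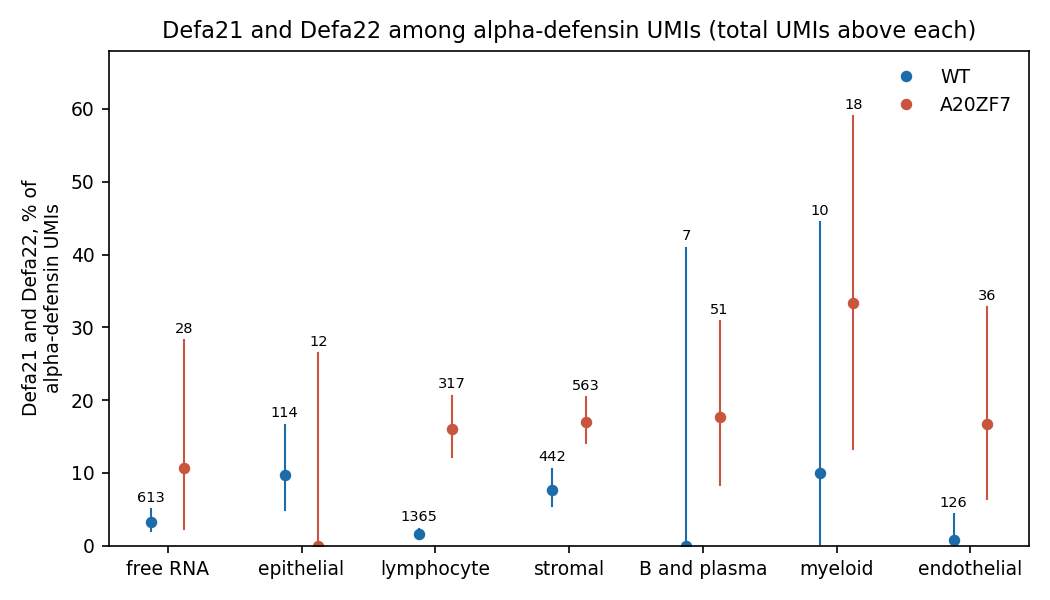
Share of alpha-defensin UMIs (%) that are Defa21 or Defa22, by barcode class in WT and A20ZF7, with 95% exact binomial intervals. The share is 1.54% in WT and 16.1% in A20ZF7 lymphocyte barcodes and 7.69% and 17.1% in stromal barcodes, and the interval for A20ZF7 epithelial barcodes, with 12 alpha-defensin UMIs, reaches from 0 to 26.5%.

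Of the other genes of the Paneth list, 19 of 27 were in both lists and 13 had at least 20 UMIs in the higher genotype. Over all barcodes 5 of the 13 were at least 2-fold lower in *A20ZF7* (*Mmp7*, *Mptx2*, *Gm14851*, *Gm15292* and *Gm15293*) and 0 were at least 2-fold higher, where 11.8% of all genes were lower and 5.34% higher by that rule. *Gm14851*, *Gm15292* and *Gm15293* (*Defa38*, *Defa40* and *Defa41* in the WT list) are also among the other alpha-defensin IDs counted above, so the counts overlap. *Gm15292*, *Gm15293* and *Mptx2* passed the minimum only through WT, with 2, 10 and 14 UMIs in *A20ZF7*. Nothing is read from the 5 of 13 either. *Mmp7*, which cuts the defensin precursors, had 64 UMIs in WT and 23 in *A20ZF7*, a ratio of 0.240 (0.142–0.392), and *Mptx2*, a pentraxin, had 25 and 14, a ratio of 0.373 (0.179–0.747). In epithelial barcodes *Mmp7* had 13 UMIs in 6 WT barcodes (6.31 CPM, 3.36–10.8) and 17 in 3 *A20ZF7* barcodes (91.9 CPM, 53.6–147), 12 of the 17 in 1 barcode. Its level there was thus higher in *A20ZF7*, while the few defensin UMIs of the class gave an interval that includes 1. List genes that many other cells also make were nearer to WT over all barcodes, with *Sox9*, a crypt transcription factor, at 0.531 (0.441–0.639) and *Xbp1*, which builds the secretory apparatus, at 0.878 (0.848–0.909). *Sntb1*, another gene of the list, was above WT, at 1.79 (1.74–1.84).

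Of the near copies, *Lyz2* was at 1.12 (1.06–1.19) of WT over all barcodes, where *Lyz1* was at 0.218, and *Ang*, another angiogenin gene, was at 0.694 (0.619–0.778), where *Ang4* was at 0.0467. Over 14 points, 7 barcode classes in each library, the gene whose level was most like the sum of the 8 genes was *Slc16a10*, an aromatic amino acid transporter, with a Pearson correlation of 0.80 of log2(CPM + 10). *Pxdc1* (0.80), *Trim36* (0.78), *1810009A15Rik* (0.75) and *Ppfibp2* (0.75) followed among 8215 genes with at least 500 UMIs in each library. The points of a library share its free RNA, and these correlations are a description.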

How the data were processed

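The deposited matrices hold UMI counts per gene and barcode, with no normalization, which the authors made with Cell Ranger. Its version is 8.0.0 per the file headers of the gene expression matrices, 7.1.0 for the antibody matrices and 7.1 in the submitters' processing notes. Those notes give mm10 as the genome build, which may not hold for both libraries, since their gene lists differ. Nothing in the sources used here explains why the gene lists of the genotypes differ. Shared gene IDs were used, and no columns of other samples were left out.

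Following the study's methods, barcodes with 200–2500 genes and at most 15% mitochondrial counts were kept, above a UMI threshold set per library (675 in WT and 396 in *A20ZF7*, which is 10% of a high quantile). Counts were clustered with Seurat 5.3.0 in R 4.3.3 (2000 variable genes without the members and the Paneth list, 30 principal components, cell cycle scores regressed out, resolution 0.8). Clusters were named from fixed markers, with limits set after the clusters were seen (a list at 40% or more of its highest cluster). WT barcodes that the hashtags marked as doublets were left out, and *A20ZF7* barcodes had no such filter. No cell was removed for its Scrublet score in the main values. Scrublet scores above 0.25 were found in 1.79% of WT and 1.28% of *A20ZF7* cells. UMIs were summed per class with Python 3.11.15 and scipy 1.17.1. Levels are CPM of the class total with exact Poisson intervals, ratios have exact conditional (Clopper-Pearson) intervals, and shares have exact binomial ones. A count of 0 was read against a floor of 3 UMIs per class and library. In data simulated for the lymphocyte comparison (6186 genes, 200 changed), a true ratio of 0.25 came out at a median of 0.250. That recovery is not read as a check on the ratios of the members. Of WT lymphocyte barcodes, 9 held 88.15% of the members' UMIs, and how the ratios behave under such clumping was not tested. WT cells were assigned to mice with HTODemux on the deposited hashtag counts.

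The members and lists were chosen with earlier results of these data known. Genes were named by a rule: all members, the 5 other alpha-defensins with most UMIs, the Paneth list, near copies, comparison lists as sums, and the 5 genes of highest correlation. Single barcodes were described after their values were seen. Alternatives changed the free RNA range, the UMI minimum, the class definition, thinning, the WT mice and the barcodes rich in the members. Enteroendocrine transcripts, compared as a list, had a ratio of *A20ZF7* to WT of 0.432 (0.0789–1.57) in free RNA.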

Additional observations from a re-analysis of the deposited data

How the results depend on the processing

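Of 84 alternative values, 51 moved by less than the counting interval of the value reported, 28 moved by more and 5 changed direction. The free RNA ratio of *A20ZF7* to WT (0.0731) was 0.160 with barcodes of 1–20 UMIs, 0.129 with 1–100 and, in alternatives chosen after seeing the data, 0.152 with 51–200 and 0.581 per enterocyte UMI. The lymphocyte ratio (0.0700) was 0.251 for *Lyz1*, *Itln1* and *Ang4*, 0.0146 with at least 1000 UMIs per cell, 0.0403 with cells gated by marker UMIs, 0.0902 after thinning and 0.0861 without WT mouse 1. In added alternatives it was 0.278 without barcodes over 10% in the 8 genes, 0.3555 without barcodes of 10 or more of their UMIs and 0.680 per enterocyte UMI. The epithelial ratio (0.474) turned to 1.54 for the defensins and was 0.0921 for *Lyz1*, *Itln1* and *Ang4*, 0.810 with gated cells and 0.824 without barcodes of 10 or more UMIs. The stromal ratio (0.603) was 0.699 without WT mouse 1 and turned to 2.84 per enterocyte UMI.

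In WT, lymphocyte barcodes over free RNA (0.626) turned to 1.90 against barcodes of 1–20 UMIs and to 1.14 with at least 1000 UMIs per cell. The value was 0.468 against barcodes of 1–100 UMIs, 0.332 against 51–200, 0.359 for *Lyz1*, *Itln1* and *Ang4*, 0.509 and 0.708 without WT mouse 1 or 2, 0.158 without barcodes over 10% and 0.0774 without those of 10 or more UMIs. In *A20ZF7* (0.599) it turned to 1.30 for *Lyz1*, *Itln1* and *Ang4*, and was 0.254 against barcodes of 1–100 UMIs, 0.153 against 51–200, 0.228 with at least 1000 UMIs per cell, 0.314 with gated cells and 0.361 without barcodes of 10 or more UMIs. The cause of these changes was not tested. Leaving out barcodes that had over 200 UMIs in the other library moved none of the values past its interval. That set is not the same as the cell barcodes found in both libraries. No paired analysis was possible because each genotype is 1 pool of animals, with nothing in the labels to match a WT mouse to an *A20ZF7* mouse. With 1 library per genotype the depth limits counting error alone, and the spread between animals is unknown.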
